A study of Drosophila melanogaster with 3 samples.

Results

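The Dpr and DIP genes of Drosophila melanogaster encode cell surface proteins with immunoglobulin (Ig) domains. They were taken here as the protein-coding genes whose symbol is dpr followed by a number or DIP- followed by the name of a Greek letter. By this rule, 21 dpr genes and 11 DIP genes were found, 32 of the 13945 protein-coding genes annotated. The measurement was the binding of a GFP-tagged form of the transcription factor sqz (squeeze) in whole embryos, by chromatin immunoprecipitation followed by sequencing (ChIP-seq). Few of the 32 genes carried a strong peak. In the authors' thresholded set, a promoter summit, within 1 kb of a transcription start site (TSS), was found for dpr14 alone among the members. Both summits there lay 101 bp from the TSS of the neighbouring gene spidey, nearer than to that of dpr14. Gene body summits of this set were found in DIP-alpha, DIP-gamma and DIP-kappa.

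A Dpr protein on one neuron binds a DIP protein on another, and most members have a small set of preferred partners. The families are known for their expression in different combinations in different neurons, and for roles in synaptic partner choice, in neuromuscular connections and in neuron survival. The founding member, dpr1, is named for a defective proboscis extension response in salt taste. Squeeze is a zinc finger protein of the Krüppel type, known for its part in specifying peptidergic neurons of the embryonic ventral nerve cord.

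The 3 libraries formed 1 group and were biological replicates numbered 1, 2 and 3 by the labels. They came from embryos of mixed sex aged 0 to 16 h, of a transgenic line (sqz-GFP) with stable expression of sqz carrying GFP at its C-terminus. Chromatin had been sonicated to 200 to 800 bp. No untagged, untreated or mutant embryos form a second group, so all values are descriptions and no test between conditions was possible. One description label calls the libraries input controls, whereas the antibody and assay labels and the separate control alignment in the file headers describe ChIP libraries, and they were treated as such. Lengths of lists carry no information on depth, since the pooled list and each library's own list all stop at 30000 peaks. The sources used here give no numbers of reads. The thresholded set of 6578 peaks, made by the authors with the irreproducible discovery rate (IDR, a measure of how alike peaks rank between replicates), held the strongest 6578 peaks of the pooled list. A summit is the highest point of a peak, and its signal value is the strength given by the authors' peak caller, on a scale that is not stated. Signal values were therefore read only as ranks and relative strengths within a list. In whole embryos, binding in fewer nuclei and weaker binding in each nucleus cannot be told apart.

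The sequence at the strongest summit of each member with a thresholded summit is shown, since the strong signal at the families lies there, and that at dpr8 for comparison. Each window is 201 bases of the plus strand of dm6, centred on the summit, and read from the RefSeq Release 6 genome, which has the same coordinates. Capitals mark the word GAGAG, or a run of A of the length of AAAAAA or more, on either strand, so that their complements are in capitals too. The DIP-alpha window lies at chrX:3546243-3546443, the DIP-gamma window at chr3R:28951005-28951205 and the DIP-kappa window at chr2L:13706464-13706664, all in introns. The dpr14 window at chrX:7908730-7908930 lies between genes and ends 1 base before the TSS of the neighbouring gene spidey. The dpr8 window at chrX:14321704-14321904, upstream of the dpr8 TSS, surrounds the strongest promoter summit of the family that did not reach the thresholded set.
DIP-alpha: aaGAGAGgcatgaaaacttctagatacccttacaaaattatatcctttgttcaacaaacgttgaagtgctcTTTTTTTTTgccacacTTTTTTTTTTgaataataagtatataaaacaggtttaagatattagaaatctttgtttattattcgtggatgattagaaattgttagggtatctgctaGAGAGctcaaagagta
DIP-gamma: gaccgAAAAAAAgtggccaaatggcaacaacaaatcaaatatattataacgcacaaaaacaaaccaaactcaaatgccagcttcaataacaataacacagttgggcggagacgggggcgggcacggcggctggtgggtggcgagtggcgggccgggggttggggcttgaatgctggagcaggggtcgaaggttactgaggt
DIP-kappa: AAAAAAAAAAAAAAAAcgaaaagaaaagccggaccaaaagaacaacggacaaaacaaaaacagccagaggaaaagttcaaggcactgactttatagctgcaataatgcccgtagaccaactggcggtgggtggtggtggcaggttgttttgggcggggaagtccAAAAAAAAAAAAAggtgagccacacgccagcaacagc
dpr14: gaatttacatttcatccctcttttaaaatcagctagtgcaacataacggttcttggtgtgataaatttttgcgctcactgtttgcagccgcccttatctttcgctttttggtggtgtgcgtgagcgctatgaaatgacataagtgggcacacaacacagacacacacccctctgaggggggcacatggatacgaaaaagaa
dpr8: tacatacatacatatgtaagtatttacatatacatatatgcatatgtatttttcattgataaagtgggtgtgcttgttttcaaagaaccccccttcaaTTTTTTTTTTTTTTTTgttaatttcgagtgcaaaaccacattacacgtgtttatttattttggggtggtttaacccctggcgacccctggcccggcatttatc
The windows differed in base composition. GC content was 29.4% at DIP-alpha, 34.3% at dpr8, 44.8% at DIP-kappa, 44.8% at dpr14 and 52.7% at DIP-gamma. AAAAAA stood in the windows of DIP-alpha, DIP-gamma, DIP-kappa and dpr8, GAGAG in that of DIP-alpha, and neither in that of dpr14. Of the other words searched, none was in any of the 5 windows. They were CAGGTA (the core of the zelda site), TATCGATA (the DNA replication-related element of broadly expressed genes), TAATTA (a homeodomain core) and CACCTG (an E-box).

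The strongest peak at any member lay in DIP-alpha, a DIP known to bind dpr6 and dpr10 and to act in motor neurons. DIP-alpha (FBgn0052791) lies on the minus strand of chromosome X from 3507245 to 3571649. The summit, at position 3546343, had a pooled signal of 568 and pooled rank 739. In the lists of replicates 1, 2 and 3 a summit within 100 bp of it had signals of 139, 216 and 213 and ranks 989, 925 and 582. All 3 libraries thus placed it among their strongest 1000 peaks. It lay in an intron, 25.3 kb downstream of the outermost TSS and 15.7 kb upstream of the second TSS, and the nearest TSS was that of ppk8, 11469 bp away. The gene ppk8 encodes a channel subunit of the pickpocket family and overlaps DIP-alpha on the other strand.

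DIP-alpha was also the member with the most pooled summits, 22 in its body, or 34.2 per 100 kb. The other 21 were far weaker, and the strongest of these had a pooled signal of 96.9. Within the body, the lists of replicates 1, 2 and 3 held 12, 15 and 13 summits. Of the 22 pooled summits, 2 were met within 100 bp in all 3 libraries. The summit 90 bp upstream of the second TSS, with signal 72.7 and pooled rank 18661, was met in replicate 3 alone. Of 1013 protein-coding genes of 20 kb or more, 63.1% had a lower density of pooled summits than DIP-alpha, which was the one long member above their median of 22.4 per 100 kb. On its own chromosome, X, genes of that length together held 34.6 per 100 kb, close to the value of DIP-alpha.

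**Figure D1:**
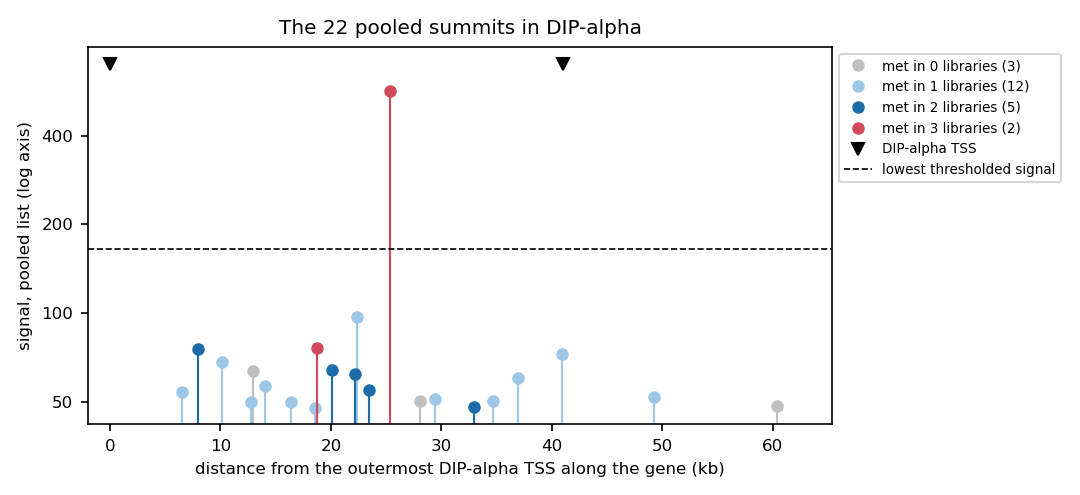
Pooled summits in DIP-alpha by distance from its outermost TSS (kb, x axis) and pooled signal (log y axis); colours give the number of libraries in which a summit was met within 100 bp, triangles the 2 TSSs, the dashed line the lowest thresholded signal. One summit, 25.3 kb into the gene with signal 568, stands above the line, and the other 21 have signals of 96.9 or less.

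DIP-gamma (FBgn0039617, chromosome 3R, 28925004 to 28970372, minus strand), a binding partner of dpr11, carried a summit at 28951105, in an intron 19.3 kb from its TSS. Its pooled signal was 166 and its pooled rank 6511, close to the end of the thresholded set at 6578, whose lowest signal was 165. The library signals were 41.4, 68.5 and 58.1 in replicates 1, 2 and 3, with ranks 8237, 7183 and 7303. No library alone placed this summit among its strongest 6578 peaks. DIP-gamma had 6 pooled summits in its body, and each of the 3 library lists had 5.

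The summit in DIP-kappa (FBgn0051814, chromosome 2L, 13676860 to 13717320, minus strand) was the sole pooled summit in that gene. It stood at 13706564, in an intron 10.8 kb from the TSS and 1651 bp from the TSS of the nested gene Gpo3. Its pooled signal was 168 with rank 6422, and its library signals were 44.9, 76.8 and 55.8 with ranks 7292, 6044 and 7749. Replicate 2 placed it among its strongest 6578 peaks, and replicates 1 and 3 did not.

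Beside dpr14 (FBgn0029974, chromosome X, 7903704 to 7908286, minus strand) lay both thresholded summits that were within 1 kb of a member's TSS. They stood 544 and 746 bp upstream, at 7908830 and 7909032, each 101 bp from the TSS of spidey on the opposite strand. The gene spidey encodes an enzyme of fatty acid and steroid metabolism and starts at 7908931. The summit nearer to dpr14 had a pooled signal of 441 and rank 1255. In replicates 1 and 3 it had signals of 101 and 178 and ranks 1872 and 889, and replicate 2 listed no summit within 100 bp. The other had a pooled signal of 300.0 and rank 2596, with signals of 47.1, 156 and 126 and ranks 6781, 1782 and 1931. Each library thus had at least 1 of these summits among its strongest 2000 peaks. No thresholded summit lay in the dpr14 body, and without summits within 500 bp of the TSS of another protein-coding gene no member kept a thresholded promoter summit.

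These 4 genes were all the members with a thresholded summit at either place. At promoters, within 1 kb of a TSS, the share was 1 of 32 members (3.125%), against 20.5% of all protein-coding genes. In the gene body it was 3 of 32 (9.38%) against 14.1%. At either place it was 4 of 32, against 23.3% of all genes.

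Longer genes had body summits more often, and the members are long. Their median length was 32.5 kb, from 3.74 kb (dpr19) to 379 kb (DIP-lambda), against 2.17 kb for all genes. Set against the 1013 genes of 20 kb or more, the 18 members of that length had a thresholded promoter summit in 0 cases (against 44.7%) and a thresholded body summit in 3 (against 59.9%). At either place the share of the long genes was 62.9%. Of these 18 members 16 had 1 TSS, against 380 of the 1013 genes, so the long genes offered more promoters per gene. With the outermost TSS of each gene alone, 32.4% of the long genes had a thresholded promoter summit, and still none of the 18 members. Of the 14 members under 20 kb, 1 had a thresholded promoter summit (against 18.6% of genes under 20 kb) and 0 a thresholded body summit (against 10.5%). The long members were thus low in both places, and among the 14 short members each gene moves a share by 7.14%.

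Counted by length, the members held 3 thresholded summits in 1579 kb of gene body, 0.190 per 100 kb. All genes held 5.07 and genes of 20 kb or more 5.06 per 100 kb, the latter a ratio of 26.6 over the members. Members of 20 kb or more alone held 0.211 per 100 kb. These are sums over genes, and a summit in overlapping genes counts in each. The median distance from a member's TSS to the nearest thresholded summit was 26.6 kb, against 9.21 kb for all genes and 2.20 kb for genes of 20 kb or more. It was over 10 kb for 29 of the 32 members (90.6%), against 48.1% of all genes and 35.0% of the long ones. The members' distances include those of members under 20 kb.

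The pooled list, which reaches down to signals of 47.0, gave a fuller map of weak summits. Within 1 kb of a TSS, 10 of 32 members (31.25%) had a pooled summit, against 37.3% of all genes. In the body it was 15 of 32 (46.9%) against 25.8%. Of the 18 long members, 6 had a promoter summit (33.3%, against 75.5% of genes of 20 kb or more) and 12 a body summit (66.7%, against 88.6%). At promoters the members were thus slightly below all genes, a gap of few genes. The long members were below genes of their length class there. With the outermost TSS alone, the promoter share of the long genes was 66.0%. In the body, members were above all genes, and long members were below genes of their length class. Of the 14 shorter members, 4 had a promoter summit (against 34.3%) and 3 a body summit (against 20.9%), shares near the background. At either place 17 of 32 members had a pooled summit, against 40.0% of all genes. The share of long genes was 90.1%, which is no like background for the 32, since 14 of them are shorter.

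**Figure D2:**
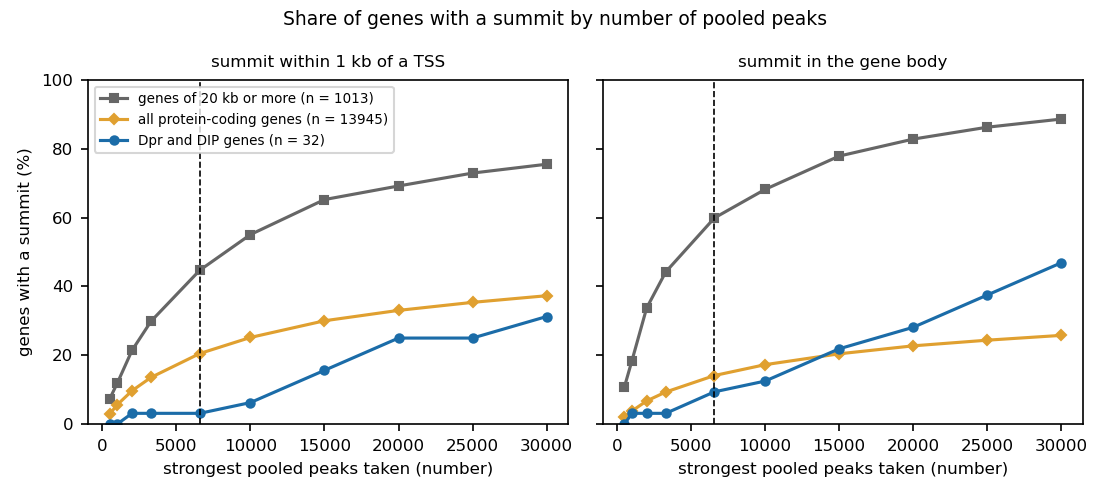
Share of genes (%, y axis) with a promoter summit, within 1 kb of a TSS (left), or a body summit (right), when the stated number of strongest pooled peaks is taken (x axis); lines are the 32 Dpr and DIP genes, all 13945 genes and the 1013 genes of 20 kb or more, and the dashed line marks the 6578 thresholded peaks. The members' line lies below that of the long genes at every number of peaks, and for promoters it reaches 31.25% at 30000 peaks.

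With the strongest 2000 pooled peaks, 1 of 32 members (3.125%) had a promoter summit, against 9.69% of all genes and 21.4% of long genes. With 10000 peaks it was 2 members (6.25%) against 25.2% and 55.1%, and with 20000 peaks 8 members (25.0%) against 33.0% and 69.2%. At each of these numbers the members were below both backgrounds, and nearer to all genes than to long genes. In the body, the share of members passed that of all genes between 10000 peaks (12.5% against 17.3%) and 15000 peaks (21.9% against 20.4%). These gains came from summits of low rank.

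Below the thresholded set, the promoter summits were led by dpr8, a partner of DIP-beta. The dpr8 summit, 422 bp upstream of the TSS, had a pooled signal of 130.3 and rank 9073. Replicates 2 and 3 ranked it 11224 and 7363, and replicate 1 listed no summit within 100 bp. Next was dpr3, with a summit 41 bp upstream, signal 113 and ranks 16947, 17218 and 9785 in replicates 1, 2 and 3. DIP-delta, the partner of dpr12 in mushroom body circuits, had a summit 249 bp upstream with signal 107 and ranks 24988, 15329 and 8903. Both of the latter were thus met in all 3 libraries, at ranks that differed between them.

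The remaining promoter summits were weaker. The strongest at dpr10, which is known in muscles as a partner of DIP-alpha, was 171 bp inside the gene with signal 94.3, met in replicates 1 and 2. The dpr18 summit, 340 bp inside the gene with signal 86.9, was met in all 3. The founding member dpr1 had signal 73.8, DIP-eta 48.6 and dpr11 47.4 at their best promoter summits. The last of these was near the end of the pooled list, at rank 29796 of 30000.

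In the gene bodies, dpr6 held the most pooled summits after DIP-alpha, 13 over 165 kb. The strongest, 26.3 kb into the gene, had signal 118 and ranks 18164, 12304 and 8738 in replicates 1, 2 and 3. Of the other 12, those nearest to nested genes lay 186 bp from the TSS of CG14160, 79 bp from that of CG32053 and 506 bp from that of CG32054. The library lists had 12, 7 and 9 summits in dpr6. For its length dpr6 was sparse, at 7.89 per 100 kb, and 27.3% of long genes had a lower density.

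Another member with many weak summits was dpr8, with 6 in the pooled list and 5, 8 and 8 in the libraries. The short gene dpr18 (6.57 kb) had 3 in the pooled list and 3, 3 and 4 in the libraries. Its best body summit had signal 126 and rank 9547, and was met in all 3 libraries. Body summits numbered 4 in dpr1 and in dpr10 and 3 in dpr3 and in dpr11. DIP-beta, dpr2, dpr13, dpr14 and dpr17 had 1 each.

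**Figure D3:**
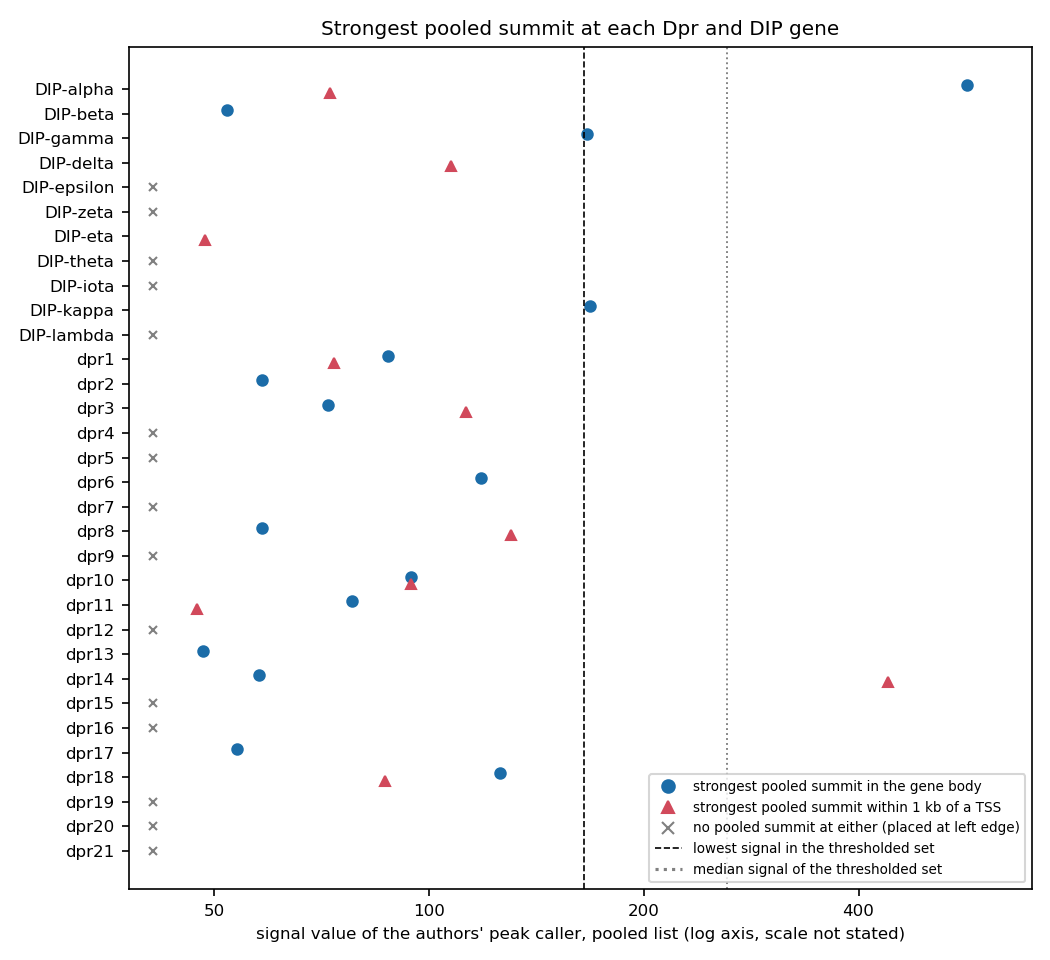
Strongest pooled summit at each of the 32 genes, as signal (log x axis), in the gene body (circles) or within 1 kb of a TSS (triangles); crosses mark the 15 genes with neither, and the lines the lowest and the median thresholded signal. Only the DIP-alpha circle (568) and the dpr14 triangle (441) pass the median of 262, and DIP-gamma and DIP-kappa sit at the lower line.

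The remaining 15 members had no pooled summit at either place. They were dpr4, dpr5, dpr7, dpr9, dpr12, dpr15, dpr16, dpr19, dpr20, dpr21, DIP-epsilon, DIP-zeta, DIP-theta, DIP-iota and DIP-lambda. In 7 of them, a library's own list held 1 or 2 body summits, each time in 1 library. Those were dpr4, dpr5, dpr12 and dpr19 in replicate 1, dpr7 and dpr15 in replicate 2, and dpr9 in replicate 3. The other 8, with DIP-delta, made up the 9 members with no body summit in the pooled list or in any library. The limit is the length of the lists, since sites weaker than the strongest 30000 peaks are not in them.

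Among genes of 20 kb or more, 115 (11.4%) had no pooled summit in the body, and 6 of these were members. By length DIP-lambda was the fifth of the 115, dpr21 the 14th and dpr12 the 28th. DIP-lambda (379 kb) and dpr21 (124.5 kb) lie at the start of chromosome 2R, where the first thresholded summit was at 4516453 and the first pooled one at 1073175. Soft-masked repeats made up 32.2% and 27.1% of their bodies, against a median of 17.7% in genes of 20 kb or more. The other long members with no pooled body summit had less, 11.2% in dpr12, 12.1% in DIP-epsilon, 12.9% in DIP-theta and 17.7% in dpr9. Shares as high as 32.0% in dpr2 and 30.3% in dpr3 stood in genes with pooled body summits. The part of repeats in the lack of summits was not tested. Without DIP-lambda and dpr21 the members' density rose to 0.279 thresholded and 6.51 pooled summits per 100 kb, still below the 5.06 and 26.1 of the long genes. The medians over the 18 long members were 18.1% soft-masked bases and 41.5% GC, against 17.7% and 41.7% in all genes of that length.

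Strong binding stood close to some members that had no thresholded summit in the body or at the promoter. The second strongest peak of the pooled list, with signal 2650 and ranks 2, 12 and 2 in the libraries, lay 4418 bp beyond the 3′ end of DIP-iota and 1029 bp from the TSS of CG11050. DIP-iota itself (4.57 kb) held no pooled summit. A thresholded summit of signal 301 lay 2194 bp beyond the 3′ end of dpr19, and 1 of signal 284 lay 4903 bp beyond that of DIP-delta. With dpr14, these were the 4 members that had a thresholded summit outside the body and within 5 kb of it, against 36.0% of all genes and 40.7% of genes of 20 kb or more.

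Each library gave the same order of members and long genes. In the full lists of replicates 1, 2 and 3, 13, 9 and 8 members had a promoter summit, a share of 31.25% ± 8.27 (SD, n = 3). The shares of all genes were 49.3%, 37.8% and 39.0%. Body summits were found in 19, 16 and 15 members, 52.1% ± 6.51, and in 33.1%, 26.1% and 27.8% of all genes. Among genes of 20 kb or more, the body share was 66.7% ± 5.56 for members and 90.0% ± 3.19 for all such genes. The members' shares were below those of long genes in 3 of 3 libraries, and the ranges did not overlap.

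Summit density separated them further. Member bodies held 69, 59 and 56 summits in replicates 1, 2 and 3, or 4.37, 3.74 and 3.55 per 100 kb, with a mean of 3.88 ± 0.431 (SD, n = 3). Genes of 20 kb or more had 23.7, 26.0 and 25.7 per 100 kb, with a mean of 25.1 ± 1.26. In the pooled list the values were 4.43 and 26.1, a ratio of 5.89. Members of 20 kb or more alone had 4.56 there. DIP-alpha alone held 22 of the 70 pooled body summits of the members (31.4%), and without it the members' density was 3.17 per 100 kb. Of the 18 long members, 17 lay below the median density of genes of that length, and 13 lay below its lower quartile of 7.06.

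**Figure D4:**
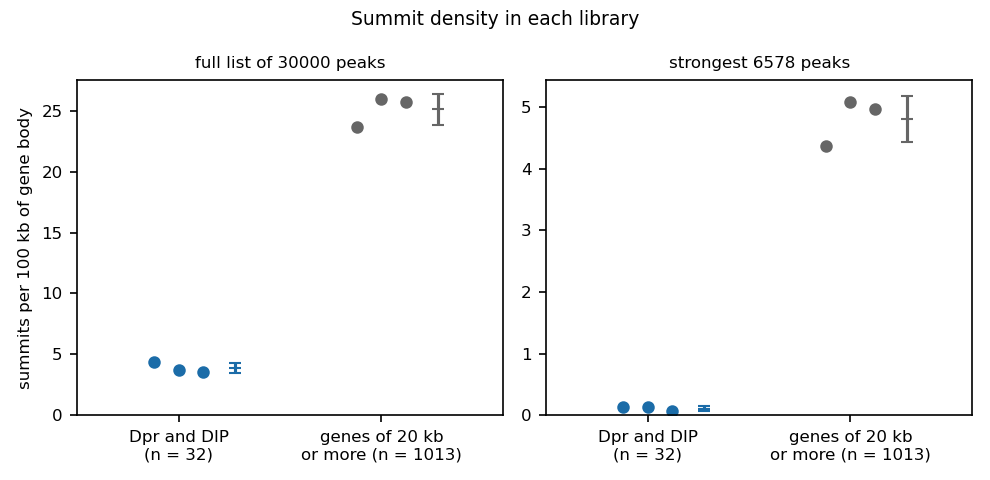
Summits per 100 kb of gene body (y axis) in the 3 libraries (points, replicates 1 to 3 from left to right) for the 32 Dpr and DIP genes and the 1013 genes of 20 kb or more, with mean and SD bars, for the full lists (left) and the strongest 6578 peaks (right). On the left the members lie between 3.55 and 4.37 and the long genes between 23.7 and 26.0.

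Taking the strongest 6578 peaks of each library left few members. Within 1 kb of a TSS, dpr14 was found in all 3 libraries, and dpr2 was found in replicate 1 only, 2, 1 and 1 members in turn. The shares of all genes were 25.6%, 20.1% and 20.4%. In gene bodies, DIP-alpha was found in all 3, dpr11 in replicate 1 and DIP-kappa in replicate 2, against 15.3%, 13.9% and 14.1% of all genes. DIP-alpha was thus the one member with a body summit among the strongest 6578 peaks of every library.

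Chromosome X carried a large part of the members' summits. It held 5 of the 32 members (DIP-alpha, DIP-beta, dpr8, dpr14 and dpr18), and 33 of the 70 pooled body summits. Their density was 13.1 per 100 kb, against 34.6 for genes of 20 kb or more on X. Off the X, members had 2.79 and long genes 24.0 per 100 kb. The members were thus lower than the long genes in either place. Their own difference between X and the rest rests largely on single genes. Without DIP-alpha the members on X had 11 summits, or 5.89 per 100 kb, and without DIP-lambda and dpr21 those off the X had 4.49, while the members on 3L had 7.52.

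The 21 dpr genes held 40 pooled body summits over 890 kb (4.49 per 100 kb), and the 11 DIP genes 30 over 689 kb (4.35 per 100 kb). DIP-alpha held 22 of those 30, and without it the DIP genes had 8 over 625 kb, or 1.28 per 100 kb. A pooled summit at either place was found in 11 dpr genes and in 6 DIP genes. All thresholded body summits were in DIP genes, and the thresholded promoter summits were at a dpr gene, in counts of 3 and 1 genes that allow no comparison.

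For known binding partners the counts stood as follows. DIP-alpha had 22 body summits in the pooled list, and its partners dpr6 and dpr10 had 13 and 4. DIP-gamma had 6, and of its partners dpr11 had 3, dpr17 had 1, and dpr15 and dpr16 had 0. DIP-beta had 1, and of its partners dpr8 had 6 while dpr9 and dpr21 had 0. DIP-delta and dpr12 each had 0 in the body, and DIP-delta had the promoter summit described above. These counts are not scaled by gene length, which differs between the genes. None of the dpr partners named here had a thresholded summit, so no set could have one in both partners. Among close neighbours are 2 pairs of members: dpr6 and dpr10 at 8.09 kb and DIP-eta and DIP-theta at 8.34 kb. The first pair had pooled body summits in both genes, and the second in neither.

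In all, 79 pooled summits lay in a member's body or within 1 kb of its TSS, and 5 of them were in the thresholded set. The 74 below the threshold had a median signal of 56.7, against 74.0 for all pooled summits below the threshold. Within 100 bp, 7 of the 74 (9.46%) were met in all 3 libraries, against 18.8% of the 23422 such summits. Over all 79, 41 were met in 1 library, 21 in 2, 11 in all 3 and 6 in none. Of the 5 thresholded summits, 4 were met in all 3 libraries and 1, at dpr14, in 2. The weak summits at members were thus of lower signal and, at a match distance of 100 bp, of lower share in all 3 libraries. The difference in share was not tested.

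By annotation, 58 of the 79 summits lay in introns. The members' summits were chosen for lying in or next to a gene, so the share was taken without the intergenic class, and was 74.4% of 78 member summits and 66.8% of 22184 pooled summits. TSS-proximal summits, within 500 bp of any TSS, were 16 of these 78, a smaller share than the 6213 of 22184 in the pooled list. With the intergenic class counted, the shares were 20.3% and 20.7%, which are not alike in how the summits were chosen. The difference was not tested. There were 3 in 3′ UTRs, 1 in a 5′ UTR, 1 between genes and 0 in coding exons. Of the 70 body summits, 39 were nearest to a TSS of a gene outside the families, and 3 lay within 500 bp of such a TSS. The overlap with other genes is common here, since 13 members have an overlapping protein-coding gene.

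Words were counted at the summits on either strand. AAAAAA stood within 100 bp of 49 of the 79 member summits (62.0%), against 59.8% of pooled and 71.7% of thresholded summits. GAGAG, the core of the GAGA factor site, stood in 20 (25.3%), against 26.7% and 31.2%. The homeodomain core was in 6 (7.59%, against 12.5% of pooled summits), the zelda core in 2 (2.53% against 3.94%) and the E-box in 2 (2.53% against 5.19%). These 3 shares were below those of the pooled list, on counts of 6 or fewer. The replication-related element was in 0, against 1.01% of pooled summits. At the 41 TSSs of the members themselves, AAAAAA was in 24.4% of the 201 bp windows, against 36.0% of all 19252 TSSs and 36.2% of the TSSs of long genes. GAGAG was in 26.8%, against 25.0% and 36.8%. Median GC content was 50.2% at member TSSs, 42.3% at all TSSs and 47.3% at those of long genes. A word is a match of letters and not a measured site.

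Other genes of cell recognition and of neurons were described in the same way. Among 22 Beat and Side genes, another pair of interacting Ig families, 1 had a thresholded promoter summit (side-VII, signal 319) and 6 a thresholded body summit. Their density was 1.06 thresholded and 10.9 pooled summits per 100 kb. Of 18 genes of Ig adhesion proteins and cadherin N, 5 had a thresholded promoter summit, led by the L1-type adhesion gene Nrg (392), the secreted Ig protein gene Ama (372) and tutl (308). Body summits were found in 12 of these 18, and densities were 5.89 and 32.0. The longest of these genes, kirre, alone held 24 thresholded and 164 pooled body summits, over 394 kb of the 1120 kb of the list. Among 20 axon guidance genes, 12 had a thresholded promoter summit, led by the teneurin gene Ten-a (1099), caps (967) and sli (747), the gene of the Robo ligand Slit. Body summits were found in 15, with densities of 5.75 and 35.9. Of 20 genes of synapse function and neuron identity, 4 had a thresholded promoter summit, led by elav (1117), fne (478) and the syntaxin gene Syx1A (367). Their body summits were in 7 genes, with densities of 1.84 and 11.2.

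Among these lists the Dpr and DIP genes had the lowest shares and densities. Median gene length was 32.5 kb for Dpr and DIP, 41.2 kb for Beat and Side, 39.2 kb for Ig adhesion, 40.3 kb for axon guidance and 27.2 kb for synapse and identity. Of 20 kb or more were 18 of the 32 Dpr and DIP genes, 18 of 22 Beat and Side, 14 of 18 Ig adhesion, 14 of 20 axon guidance and 11 of 20 synapse and identity genes. The lists thus differ in their share of long genes, which bears on the counts of genes with a body summit. Thresholded density, which is per length, ran from 0.190 to 5.89 per 100 kb. The lists are short and hold members of shared loci, and no test was made between them.

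**Figure D5:**
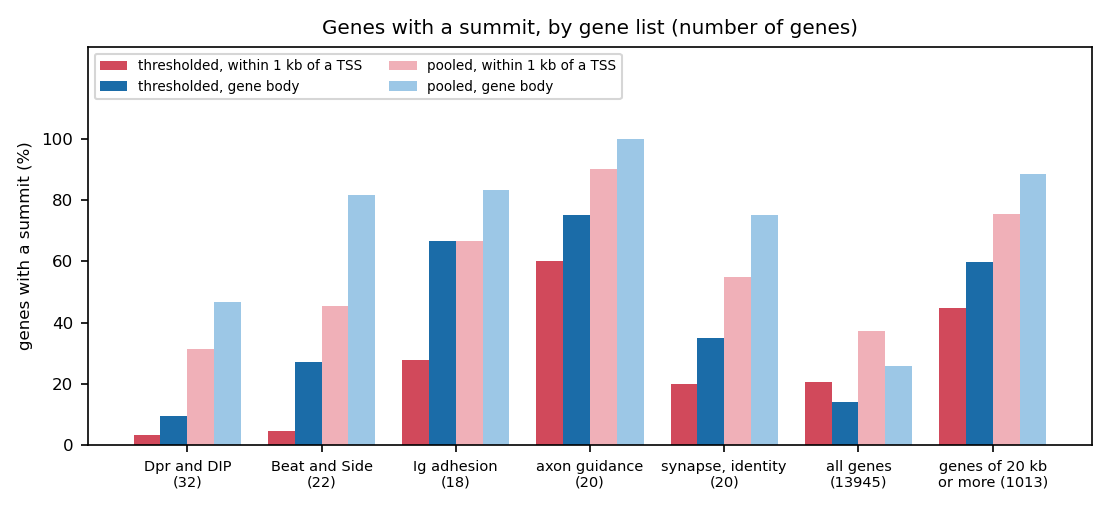
Share of genes (%, y axis) with a thresholded or pooled summit at the promoter (within 1 kb of a TSS) or in the body, for the 32 Dpr and DIP genes, 4 other lists, all genes and genes of 20 kb or more (bars; number of genes in brackets). The Dpr and DIP bars for thresholded summits, at 3.125% and 9.38%, are the lowest of the 5 lists, while the axon guidance bars reach 60.0% and 75.0%.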

How the data were processed

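ChIP-seq peak lists of 3 sqz-GFP embryo libraries were used. Peak calling by the authors was done on dm6 for every library and for a pool of all 3, with 1 control alignment for all, and the thresholded set was derived by IDR, per the file headers. The deposited signal value (column 7) is a score as the authors' caller gave it. For the aligner, the caller, versions and the IDR threshold, nothing is stated (not given in the sources used here). From these lists, the summit (start plus summit offset) was placed on TSSs and bodies of protein-coding genes of Ensembl release 115 (BDGP 6.54), with Python 3.11.15, numpy 2.4.6 and pandas 2.3.3. A summit was met in a library when that library's list had a summit within 100 bp. Counting was checked on simulated data. Members were set beside all genes and genes of 20 kb or more. With 1 group and no contrast, no test was run. All members are named. Full values are given for those with a thresholded summit, and up to 3 genes of each other list are named by their thresholded promoter signal. The members, lists and rules were chosen with earlier results of these data known. Alternatives were other TSS windows and TSS sets, stricter peak sets, merged summits, gene flanks, libraries left out, another match distance and another word window.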

Additional observations from a re-analysis of the deposited data

How the results depend on the processing

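Of 68 alternatives, 31 stayed within 1.5 times the reported value and 37 did not. Counts of thresholded summits rest on few sites. The 1 member with a thresholded promoter summit became 0 with a 500 bp window, 0 without summits at other genes' promoters (added after the data were seen) and 0 when a thresholded summit had to be matched within 100 bp among the strongest 6578 peaks of all 3 libraries. That is stricter than a match in the full lists, which 4 of the 5 thresholded member summits have in all 3. With the strongest 3289 peaks, and with the match among the strongest 6578 of each library, the 3 members with a thresholded body summit became 1, their 3 summits 1 and the density 0.0633 per 100 kb. With 1 kb on each side of the gene, the summits became 5 and the density 0.304. The summit left by the stricter sets is that of DIP-alpha. The shares of all genes fell under these settings as well. For thresholded promoters the share was 17.3% with the 500 bp window and 12.7% with the match in all 3 libraries, down from 20.5%. For thresholded bodies it was 9.32% with the strongest 3289 peaks and 9.20% with the match, down from 14.1%. Leaving out each library in turn and asking for the same match in both others gave 0 to 1 members for thresholded promoters, 1 for bodies, 1 summit, and 0.0633 per 100 kb. The background fell too, to between 14.3% and 15.2% of all genes for thresholded promoters and between 10.2% and 10.9% for thresholded bodies. In the pooled list, with matches in the full lists of both others, it gave 4 to 6 members for promoters (against 25.9% to 27.5% of all genes), 8 to 9 for bodies (against 18.8% to 19.8%) and 13 to 15 body summits. Member summits met in all 3 libraries rose from 11 to 18 with a match distance of 250 bp, and those below the threshold from 7 to 13 of 74. The share of all pooled summits at that distance is not given here. GAGAG fell from 20 to 8 summits in windows of 50 bp on each side, or 10.1% against 14.8% of pooled and 17.2% of thresholded summits. Added later, pooled density without DIP-alpha was 1.28 per 100 kb in DIP genes and 5.89 in members on X, and without DIP-lambda and dpr21 it was 4.49 in members off X. The promoter background of 20.5% was 44.7% in genes of 20 kb or more and, added later, 46.6% in genes of 50 kb or more. No paired analysis was possible because there is 1 group and the results come from no test. Read depths are not known, the lists stop at 30000 peaks, and the pooled list uses all 3 libraries, so leaving a library out changes the support asked for and not the list itself.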
